A study of Mus musculus with 6 samples.

Results

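The genes described here are 9 components, receptors and a regulator of the complement system, namely C1qa, C1qb, C1qc, C3, Cfb, Cfp, C3ar1, C5ar1 and Serping1, taken by name from the 20649 genes of a scRNA-seq count matrix. All 9 were in the matrix. The cells came from tumors grown under the skin of BALB/c mice from CT26, a mouse colon carcinoma line, and were selected for CD45, the surface protein shared by leukocytes. Mice of the 2 groups received into the tumor either exoASO-STAT6, exosomes loaded with an antisense oligonucleotide (ASO) against the transcription factor STAT6, or exoASO-Scramble, the same carrier with a control sequence (3 tumors per group). Each tumor was given 3 injections and was taken 24 h after the last. All cells were therefore selected as leukocytes from tumors that had received exosomes, and no group was untreated. The mice were females bought at an age of 6 to 8 weeks.

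The 9235 cell barcodes end in suffixes from 3 to 8, which match no sample label. They were read as 6 libraries of unknown treatment, so exoASO-STAT6 was not compared with exoASO-Scramble. No p-value was computed on what is, for the treatments, in effect 1 pooled sample. Between 867 and 2017 barcodes and between 11492757 and 33902084 unique molecular identifiers (UMIs, the counted molecules) belonged to a library. In the matrix, 16 barcode sequences occurred in more than 1 library. Intervals in parentheses hold 95% of the counting error and no other error, and the range over the 6 libraries is given as the spread.

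Complement is a cascade of plasma proteins that marks targets for phagocytes. C1q, built from the chains encoded by C1qa, C1qb and C1qc, opens the classical pathway when it binds antibody or dying cells; C3 is the central protein that all routes cleave; factor B (Cfb) and properdin (Cfp) form and stabilize the convertase of the alternative pathway. The fragments C3a and C5a act on the receptors C3ar1 and C5ar1 of myeloid cells, and the C1 inhibitor, encoded by Serping1, blocks the proteases that C1q activates. Liver supplies most circulating complement, while tissue macrophages are known as a local source of C1q.

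All 9 genes lie on the minus strand of the mouse genome (GENCODE M21, build GRCm38, the same as mm10). The genes of the C1q chains form a cluster on chromosome 4 that spans 18675 bases, with C1qb at chr4:136880129-136886187, C1qc at chr4:136889804-136893065 and C1qa at chr4:136895917-136898803. C3 (chr17:57203970-57228136) and Cfb (chr17:34856374-34862518) share chromosome 17. Cfp lies at chrX:20925454-20931555, C3ar1 at chr6:122847138-122856161, C5ar1 at chr7:16246743-16259540 and Serping1 at chr2:84765387-84775444.

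The 250 bases before the RefSeq transcription start (build GRCm38.p6) are shown for C1qb and C3, because inside macrophages C1q and C3 ran in opposite directions. C1qb is at chr4:136886201-136886450 and C3 at chr17:57228137-57228386, both written 5′ to 3′ on the strand of the gene. Capitals mark the motif matches named after them.
C1qb: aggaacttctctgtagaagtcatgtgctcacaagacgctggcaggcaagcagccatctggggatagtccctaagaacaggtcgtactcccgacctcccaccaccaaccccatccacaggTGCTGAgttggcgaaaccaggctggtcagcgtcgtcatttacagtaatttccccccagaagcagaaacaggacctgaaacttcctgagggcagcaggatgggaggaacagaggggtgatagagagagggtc
C3: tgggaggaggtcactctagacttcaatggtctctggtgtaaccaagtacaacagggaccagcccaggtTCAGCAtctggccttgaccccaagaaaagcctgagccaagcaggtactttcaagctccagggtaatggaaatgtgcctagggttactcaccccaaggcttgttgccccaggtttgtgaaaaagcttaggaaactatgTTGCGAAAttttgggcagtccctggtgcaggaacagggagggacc

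Upstream sequences were at hand for 6 of the 9 genes, namely C1qb, C1qc, C3, Cfp, C3ar1 and C5ar1. Each was searched on both strands for a MAF core (TGCTGA), a PU.1 motif (GAGGAAG), a GAS element (TTCNNNGAA) and a C/EBP motif (TTGCGNAA); the MAF and C/EBP letters were chosen after the sequences had been read, and matches of different motifs did not overlap. The MAF core was found in C1qb, 131 to 126 bases before the start, and also in C3 on the opposite strand (182 to 177 bases before the start), in C3ar1 and in C5ar1. Of 32851 upstream sequences of the same length, 16.1% held it. The C/EBP motif was found in C3 alone of the 6, 45 to 38 bases before the start, as TTGCGAAA, and in 0.670% of all such sequences. The PU.1 motif was found in C1qc on the opposite strand and in 10.6% of all sequences. The GAS letters (in 7.02% of all sequences) were in none of the 6 windows. These matches describe the letters only.

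To find out which cells hold each transcript, barcodes were gated on genes outside the set. The gates asked for at least 3 UMIs of Csf1r and Adgre1 together (macrophage), 5 of S100a9 (neutrophil), 1 of Flt3 (dendritic), 2 of Cd79a (B), 1 of Ncr1 (NK) or 2 of Cd3e, Cd3d and Cd3g together (T). The macrophage gate was passed by 6285 barcodes. It does not separate monocytes from macrophages, and macrophages below means macrophage-gated barcodes, monocytes among them included. A total of 5079 barcodes passed exactly 1 gate, namely 4012 macrophage, 113 neutrophil, 147 dendritic, 37 B, 350 NK and 420 T barcodes, and 1791 passed none. Another 2365 barcodes (25.6%) passed several gates. They held a median of 23578 UMIs, against 12586.5 in macrophage-gated barcodes, and were left out of the groups. Each gated group had the highest sum of its own cell type's markers among the gated groups, but several groups held markers of other types too. T-gated barcodes held 125 CPM of mast cell or basophil markers (0 to 406 over libraries), against 3.36 CPM in macrophage-gated ones, and B-gated barcodes held 304 CPM of dendritic markers, against 36.8 CPM. In neutrophil-gated barcodes the 7 neutrophil markers summed to 5268 CPM (counts per 1000000 UMIs), against 159 CPM in macrophage-gated ones, but the macrophage markers (Cd68, Fcgr1, Ms4a7, Apoe, Lyz2 and Cd14) also summed to 6260 CPM, against 11067 CPM. By gene, these markers lay at 33.5% (Apoe), 41.8% (Lyz2), 44.0% (Ms4a7), 98.8% (Fcgr1), 98.9% (Cd68) and 153% (Cd14) of the macrophage-gated level. Fcgr1, an Fc receptor of macrophages, was at 429 CPM in neutrophil-gated and 435 CPM in macrophage-gated barcodes. Of the 113 neutrophil-gated barcodes, 7 lacked transcripts of Csf1r, Adgre1, Fcgr1 and Ms4a7. Those 7 barcodes held 429 CPM of C3ar1 (235 to 721, from 14 UMIs), 123 CPM of C5ar1 (33.4 to 314, from 4 UMIs), 92.0 CPM of C3 from 3 UMIs and 276 CPM of C1qa (126 to 524, from 9 UMIs), which was 82.7% of the macrophage-gated level for C3ar1 and 9.02% for C1qa. Over the group as a whole, the part of each cell type in its complement transcripts was not tested. In barcodes with no gate the macrophage markers summed to 7546 CPM, with Cd14 at 140%, Ms4a7 at 34.9% and C1qa at 20.9% of the macrophage-gated level, and the source of these transcripts was not tested. The chemistry tags each transcript once at its 3′ end, so CPM were compared between genes without a correction for length.

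C1q was the most abundant part of the set and the one that lay most clearly in macrophages. Per chain, macrophage-gated barcodes held 3060 CPM of C1qa (3046 to 3074), 1869 CPM of C1qb (1858 to 1880) and 2304 CPM of C1qc (2292 to 2317). The other groups held 70.2 to 683 CPM of C1qa, 35.1 to 421 CPM of C1qb and 52.6 to 611 CPM of C1qc, with neutrophil-gated barcodes highest among them and B-gated barcodes lowest. The macrophage level of C1qa was 4.48-fold that of neutrophil-gated, 24.9-fold that of dendritic-gated and 28.9-fold that of NK-gated barcodes. C1qa in macrophage-gated barcodes was 3228 CPM in suffix 3, 4357 CPM in suffix 4, 2473 CPM in suffix 5, 1489 CPM in suffix 6, 3403 CPM in suffix 7 and 2989 CPM in suffix 8. Suffix 4 was highest and suffix 6 lowest, and C1qb (969 to 2643 CPM) and C1qc (1259 to 2982 CPM) had their extremes in the same libraries. No library of another single gate or of ungated barcodes reached the lowest macrophage library for any chain, the highest C1qa level among them being 1180 CPM in the 5 neutrophil-gated barcodes of suffix 4. In NK- and T-gated barcodes C1qa was highest in suffix 5, at 543 and 548 CPM.

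**Figure D1:**
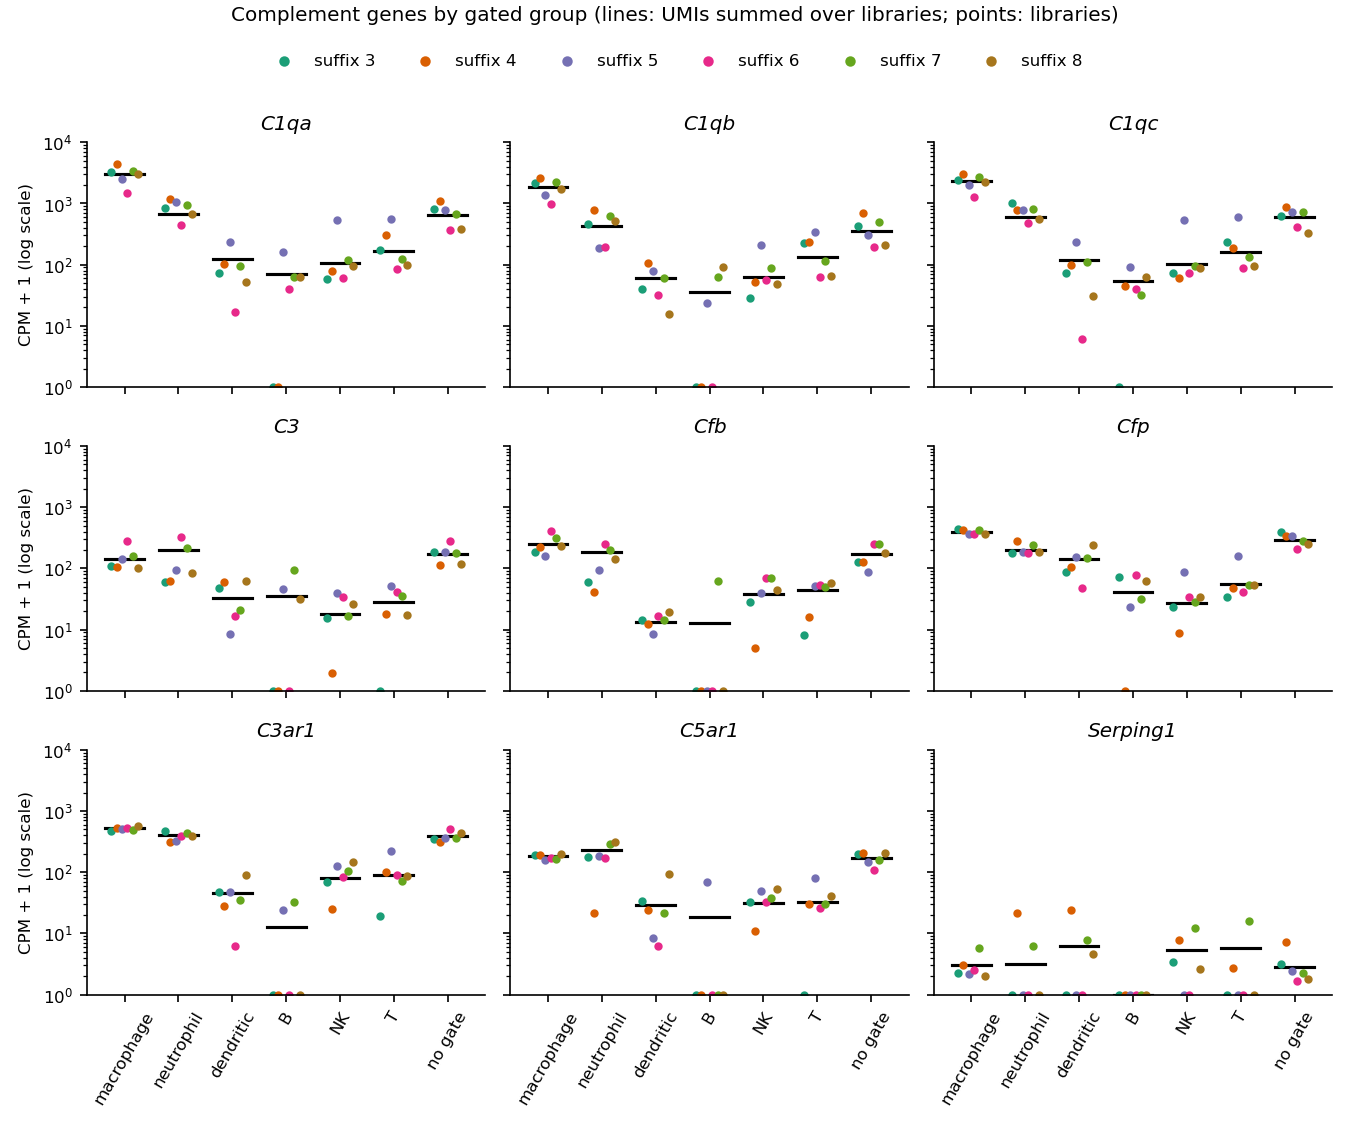
CPM plus 1 of each of the 9 genes on a log scale, by gated group; black lines give the UMIs summed over libraries and coloured points the 6 libraries, a point on the lower edge being 0. C1qa, C1qb and C1qc are highest in macrophage-gated barcodes (3060, 1869 and 2304 CPM), whereas over macrophage-gated, neutrophil-gated and ungated barcodes C3 spans 144 to 199 CPM and C5ar1 169 to 229 CPM.

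Of the 9 genes, C1qa, C1qb and C1qc were at least 2-fold higher in macrophage-gated barcodes than in each of the 5 other groups, against 0.829% of all 9770 genes with at least 10 CPM in a group. Cfp missed this limit at 1.98-fold over neutrophil-gated barcodes. With neutrophil-gated barcodes left aside, a step chosen after seeing the data, 8 of the 9 were at least 2-fold higher, against 5.97% of all genes, and Serping1 was the one that was not. Serping1 stayed under 10 CPM in each group, so it is not among the genes behind these 2 shares, which hold 8 of the 9. With every barcode that passes a gate, whatever its other gates, and likewise with gates read at 1000 UMIs per barcode, 0 of the 9 reached the limit. The C1qa level of macrophage-gated barcodes was then 1.19-fold and 1.35-fold that of the highest other group, against 4.48-fold in the main setting.

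In barcodes that passed both the macrophage and the T gate, C1qa stood at 2518 CPM, C1qb at 1559 CPM and C1qc at 1993 CPM, close to macrophage-gated levels. T-gated barcodes that passed no other gate held 168 CPM of C1qa. Of these, 261 also lacked transcripts of Csf1r, Adgre1, Fcgr1 and Ms4a7 and are called barcodes without macrophage transcripts. They held 36 CPM of C1qa (28.4 to 44.9), which was 1.18% of the macrophage level. The remaining level of C1qa was 48.5 CPM in 242 such NK-gated, 43.8 CPM in 84 such dendritic-gated and 52.7 CPM in 30 such B-gated barcodes, and the intervals of these 4 groups overlapped. In suffix 5, the NK- and T-gated barcodes of this kind held 101 and 84.7 CPM of C1qa, from 8 UMIs each. Genes known from macrophages behaved alike: in the same T-gated barcodes, 9 reference genes (Apoe, Lyz2, Ms4a7, Cd68, Fcgr1, Cd14, Trem2, Aif1 and Mrc1) had a median of 1.94% of their macrophage level, and in the NK-gated ones 1.90%. Ms4a7 and Fcgr1 were at 0 there by the choice of barcodes. Without Ms4a7 and Fcgr1, the reference genes of these NK-gated barcodes ranged from 1.54% (Lyz2) to 3.2% of their macrophage level. C1qa, C1qb and C1qc lay within that range. In the T-gated ones the range was 1.698% (Trem2) to 3.33%. There C1qb (1.92%) lay within it, whereas C1qa (1.18%) and C1qc (1.56%) lay below it, with intervals that overlapped that of Trem2.

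Counted per barcode, and at an equal depth of 1000 UMIs, 58.1% of macrophage-gated barcodes held a C1qa UMI (56.5% to 59.6%). In T-gated barcodes the share was 11.9%, in NK-gated 7.51% and in dendritic-gated 13.0%, while it was 25.9% in neutrophil-gated and 28.0% in ungated barcodes. Without this equalization the shares were 74.0% in macrophage-gated and 33.8% in T-gated barcodes, whose median depths were 12586.5 and 7377 UMIs. In T-gated barcodes without macrophage transcripts the share at 1000 UMIs was 5.49% (3.03% to 9.04%). T cells are not known to make C1q, and the source of the C1qa UMIs in T-gated barcodes was not tested.

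The chains kept a nearly fixed proportion. In macrophage-gated barcodes C1qa took 42.3% of C1q UMIs, C1qb 25.8% and C1qc 31.9%, and over the libraries C1qa ranged from 40.1% to 43.7%, C1qb from 23.3% to 27.3% and C1qc from 29.9% to 34.2%. Across macrophage-gated barcodes the log-scaled levels of C1qa and C1qc correlated with a Pearson r of 0.95 as a mean over libraries, and C1qb followed each of them with r of 0.94. Depth is shared by all genes of a barcode and enters such values. Beyond the chains, the genes most like C1qa, ranked by this mean r over 7954 genes, were Cd63 (0.55), Cd81 (0.54) and Grn (0.52). C1qb and C1qc also had Cd63 as the first gene after the other chains.

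Macrophage-gated barcodes were not uniform in C1q. Of the 4012 macrophage-gated barcodes, 688 (17.1%) held no C1q UMI at all and 2251 (56.1%) held 32 or more per 10000 UMIs. A further 899 lay between 1 and 32 per 10000, and these limits were set after seeing the distribution. Barcodes without C1q were shallower, with a median of 8835.5 UMIs against 15928 UMIs in those with 32 or more. The share without any C1q UMI was 19.6% in suffix 3, 6.13% in suffix 4, 19.1% in suffix 5, 33.6% in suffix 6, 12.3% in suffix 7 and 16.7% in suffix 8. Suffix 6 stood highest and suffix 4 lowest, and the intervals of these 2 libraries overlapped with those of no other.

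**Figure D2:**
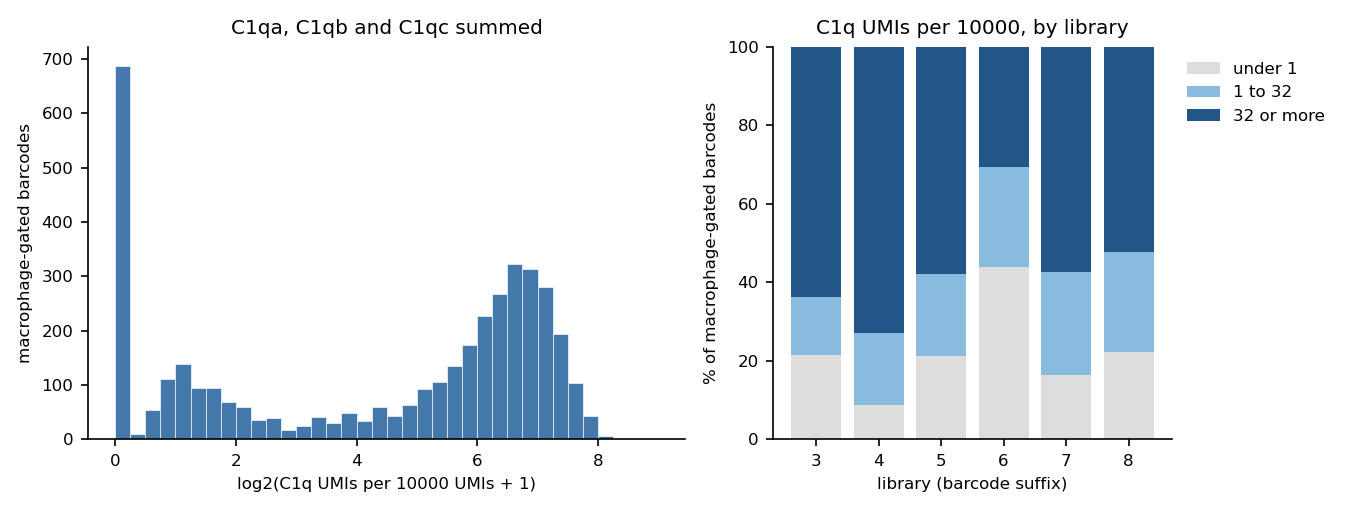
Left, number of macrophage-gated barcodes by log2 of the C1q UMIs (C1qa, C1qb and C1qc summed) per 10000 UMIs plus 1; right, percent of macrophage-gated barcodes of each library with under 1, 1 to 32, and 32 or more C1q UMIs per 10000. The first bar on the left holds the 688 barcodes with no C1q UMI, and in suffix 6 the share with 32 or more was 30.5%, against 72.9% in suffix 4.

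C3, the central component, was spread more widely over the groups than C1q. Macrophage-gated barcodes held 144 CPM (141 to 147), neutrophil-gated 199 CPM (171 to 230) and barcodes with no gate 170 CPM (162 to 178). Dendritic-gated barcodes held 31.4 CPM, B-gated 35.1 CPM (12.9 to 76.4, from 6 UMIs), T-gated 27.8 CPM and NK-gated 17.2 CPM of C3. Of the 182 C3 UMIs of neutrophil-gated barcodes, 111 came from suffix 6. The neutrophil-gated C3 level was above the macrophage-gated level of the same library in suffix 6 (323 against 283 CPM) and suffix 7 (217 against 158 CPM) and below it in the other 4, so the pooled order did not hold in each library. In macrophage-gated barcodes C3 was 109 CPM in suffix 3, 103 CPM in suffix 4, 140 CPM in suffix 5, 283 CPM in suffix 6, 158 CPM in suffix 7 and 100.4 CPM in suffix 8. Suffix 6 stood apart from the other libraries. In barcodes without macrophage transcripts C3 was between 3.5 and 8.78 CPM in the dendritic-, B-, NK- and T-gated groups, from 1 to 8 UMIs each.

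Factor B, the serine protease of the alternative convertase, was highest in macrophages. Cfb was 254 CPM in macrophage-gated (250 to 258), 185 CPM in neutrophil-gated and 170 CPM in ungated barcodes. Between 11.7 and 43.5 CPM were found in dendritic-, B-, NK- and T-gated barcodes, the B-gated level resting on 2 UMIs. Without macrophage transcripts the highest of these levels was 7.11 CPM, in dendritic-gated barcodes. Over the macrophage libraries Cfb was 182 CPM in suffix 3, 220.0 CPM in suffix 4, 156 CPM in suffix 5, 405 CPM in suffix 6, 315 CPM in suffix 7 and 232 CPM in suffix 8. As for C3, suffix 6 was highest. In macrophage-gated barcodes of that library Isg15, a gene induced by interferon, was 608 CPM against a median over libraries of 197 CPM, and Ly6c2, a monocyte marker, was 582 CPM against 189 CPM.

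Properdin differed from the other components in its level in dendritic cells. Cfp was 396 CPM in macrophage-gated (391 to 401), 200 CPM in neutrophil-gated, 140 CPM in dendritic-gated (122 to 160), 54.2 CPM in T-gated, 40.9 CPM in B-gated and 26.1 CPM in NK-gated barcodes. In the 84 dendritic-gated barcodes without macrophage transcripts it was still 136 CPM (112 to 164), or 34.4% of the macrophage level, whereas C1qa was at 1.43% and C3ar1 at 0.685%. The 9 reference genes had a median of 4.63% in the same barcodes, with a maximum of 37.7% for Aif1. That median counts Ms4a7 and Fcgr1, which were at 0 by the choice of barcodes. The dendritic Cfp level varied from 18.7 to 228 CPM over the libraries, and every library held some. In T-gated barcodes without macrophage transcripts Cfp was 18.0 CPM, 4.54% of the macrophage level (3.23% to 6.21%), beside 3.33% for the highest reference gene there, and the value rests on 39 UMIs. Over the macrophage libraries Cfp ranged narrowly from 363 to 443 CPM.

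**Figure D3:**
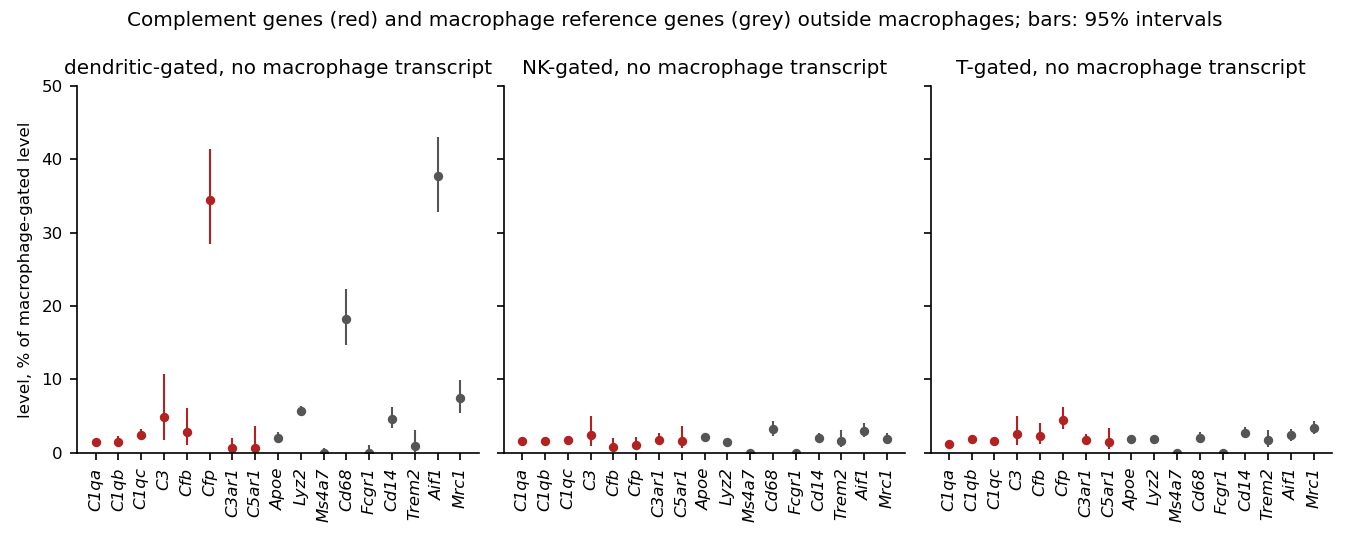
Level in dendritic-, NK- and T-gated barcodes without macrophage transcripts, as a percent of the macrophage-gated level, for 8 complement genes (red) and 9 macrophage reference genes (grey), with intervals of 95%. In dendritic-gated barcodes Cfp stands at 34.4%, beside Aif1 at 37.7%, and the C1q chains lie at 1.43% to 2.47%.

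Both receptors of the anaphylatoxins were highest in macrophage-gated, neutrophil-gated and ungated barcodes. C3ar1 was 519 CPM in macrophage-gated (513 to 525), 397 CPM in neutrophil-gated and 392 CPM in ungated barcodes. C3ar1 was 88.2 CPM in T-gated, 79.3 CPM in NK-gated, 44.2 CPM in dendritic-gated and 11.7 CPM in B-gated barcodes (1.42 to 42.3, from 2 UMIs). Dendritic-gated barcodes thus lay below T- and NK-gated ones. The 84 dendritic-gated barcodes without macrophage transcripts held 3 UMIs of C3ar1, or 3.55 CPM (0.733 to 10.4), and the NK- and T-gated ones of this kind held 8.99 and 8.76 CPM. In macrophage-gated barcodes the libraries lay between 469 and 567 CPM, a narrow range beside those of C1q, C3 and Cfb. C5ar1 was 179 CPM in macrophage-gated (176 to 183), 229 CPM in neutrophil-gated (199 to 263) and 169 CPM in ungated barcodes. It was 32.1 CPM in T-gated, 30.1 CPM in NK-gated, 28.2 CPM in dendritic-gated and 17.5 CPM in B-gated barcodes (3.62 to 51.3, from 3 UMIs). Its neutrophil-gated level was 291 CPM (219 to 379) against 165 CPM in macrophages in suffix 7 and 306 CPM (245 to 379) against 198 CPM in suffix 8, while in suffix 6 it was 172 against 169 CPM. In suffixes 3, 4 and 5 it rested on 6, 1 and 4 UMIs of C5ar1. Cxcr2, a chemokine receptor of neutrophils, was 83.0 CPM in neutrophil-gated and 1.86 CPM in macrophage-gated barcodes, and the part of each cell type in these C5ar1 levels was not tested. C5ar1 in macrophage-gated barcodes was between 158 and 198 CPM.

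At 1000 UMIs per barcode, 37.7% of macrophage-gated barcodes held a C3ar1 UMI, 29.4% a Cfp UMI, 21.1% a Cfb UMI, 15.4% a C5ar1 UMI and 13.9% a C3 UMI. In NK-gated barcodes these shares were 6.36% for C3ar1, 1.16% for Cfp, 2.89% for Cfb, 1.45% for C5ar1 and 0.867% for C3. In T-gated barcodes they were 8.47% for C3ar1, 4.36% for Cfp, 2.91% for Cfb, 2.18% for C5ar1 and 2.66% for C3, and 9.59% of dendritic-gated barcodes held a Cfp UMI. Neutrophil-gated barcodes, at the same depth, held a C3ar1 UMI in 39.3% (30.2% to 49.0%), a C5ar1 UMI in 24.1% (16.5% to 33.1%) and a C3 UMI in 17.9% (11.3% to 26.2%). For C3ar1 the order of these 2 groups was thus the reverse of that by CPM, within overlapping intervals.

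Serping1, the C1 inhibitor, was close to absent from all gated leukocytes. It was 2.0 CPM in macrophage-gated barcodes (1.65 to 2.39), 5.12 CPM in dendritic-gated, 4.72 CPM in T-gated and 4.30 CPM in NK-gated barcodes, and 0 UMIs were found in the 37 B-gated ones, which allows up to 21.6 CPM. The 117 UMIs of macrophage-gated barcodes lay in 92 of 4012 barcodes. Of the 19 Serping1 UMIs in T-gated barcodes, 12 lay in 1 barcode. Of all barcodes, whatever their gates, the 6 richest held 20, 19, 14, 12, 11 and 10 Serping1 UMIs. The same barcodes held 33, 52, 14, 36, 9 and 37 UMIs of the fibroblast markers Col1a1, Col1a2, Dcn, Pdgfra and Pdgfrb, while macrophage-gated barcodes in all held 14.6 CPM of these markers. Of these barcodes, 4 belonged to suffix 7 and 2 to suffix 4, and 4 of the 6 passed several gates. Fibroblasts are a known source of the C1 inhibitor. They lack CD45, so the selection for CD45 should remove them, and the part of such cells in these counts was not tested.

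To see how the other components and the receptors go with C1q inside macrophages, the 4012 macrophage-gated barcodes were sorted within each library by the share of UMIs on the C1q chains and cut into 5 bins of equal size. The median C1q share rose from 0 per 10000 UMIs in the bottom bin to 144 per 10000 in the top bin, and the median depth rose from 9113 to 16992 UMIs. In suffix 6, barcodes without C1q filled the bottom bin and part of the next, so their split was arbitrary. Of the 6 genes that did not make the bins, C3ar1 was higher in the top than in the bottom bin in all 6 libraries, and C3 and C5ar1 were lower in all 6. Among 10655 genes with at least 100 UMIs, 21.7% were higher and 14.4% lower in all 6 libraries, and nothing particular to complement is read from the counts of 1 and 2 of 6.

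C3 had the widest pooled difference, although Cfb differed more in suffixes 3 and 4. Over all libraries C3 was 248 CPM in the bottom bin and 103 CPM in the top bin, 2.40-fold lower (2.25 to 2.57). By library C3 went from 203 to 136 CPM in suffix 3, from 153 to 118 CPM in suffix 4, from 197 to 110 CPM in suffix 5, from 433 to 155 CPM in suffix 6, from 320 to 106 CPM in suffix 7 and from 189 to 51.6 CPM in suffix 8. The fold was between 1.30 and 3.66 with a median of 2.30, and the smallest differences were in suffixes 4 and 3. C3 did not fall evenly, since the lowest pooled level was 92.0 CPM, in the bin next to the top. Summed neutrophil markers also went from 301 CPM in the bottom to 78.3 CPM in the top bin. In the 1060 macrophage-gated barcodes with no UMI of S100a9 or of stromal, dividing-cell or red-cell markers, C3 was still lower in the top bin in all 6 libraries, with a top-to-bottom ratio of 0.462. At an equal 5000 UMIs per barcode the C3 ratio was 0.384, again below 1 in all 6 libraries.

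C5ar1 moved the same way by less. It was 213 CPM in the bottom and 157 CPM in the top bin, 1.35-fold lower (1.27 to 1.44), and between 1.13-fold and 1.73-fold lower in the single libraries. In suffix 5 the interval of the C5ar1 ratio included 1 (0.745 to 1.05). With 2 bins in place of 5, in the 1060 barcodes without the other markers, or with every barcode that passed the macrophage gate, it was no longer lower in all 6 libraries. The pooled C5ar1 ratio was then 0.847, 0.750 and 0.842, in that order, against 0.738 in the main setting. In the 1060 barcodes the pooled difference was thus about as large as before.

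C3ar1, the receptor of the other anaphylatoxin, ran in the opposite direction. It rose from 441 CPM in the bottom to 569 CPM in the top bin, 1.29-fold higher (1.24 to 1.34), and in the single libraries it was 1.07-fold to 1.54-fold higher. The interval of the C3ar1 ratio included 1 in suffix 6 (0.973 to 1.17). C3ar1 stayed higher in every library used under each alternative that was run.

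Cfp was 349 CPM in the bottom and 478 CPM in the top bin, 1.37-fold higher (1.31 to 1.43). It was higher in 5 of 6 libraries, by up to 1.76-fold in suffix 8, and in suffix 4 it was 472 CPM in the bottom and 466 CPM in the top bin. Cfb had no common direction. It was 2.38-fold higher in the top bin in suffix 3, 1.99-fold in suffix 4 and 1.41-fold in suffix 5, but 1.12-fold lower in suffix 6, 1.25-fold lower in suffix 7 and 1.22-fold lower in suffix 8, with no interval of Cfb that included 1. The pooled ratio of Cfb, 1.06, hides this split, and it fell below 1 under 4 alternatives, among them leaving out suffix 4 (0.947). Serping1 had 16 UMIs in the bottom and 34 in the top bin, and its ratio of 1.18 (0.634 to 2.29) could not be told from 1 at this depth.

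**Figure D4:**
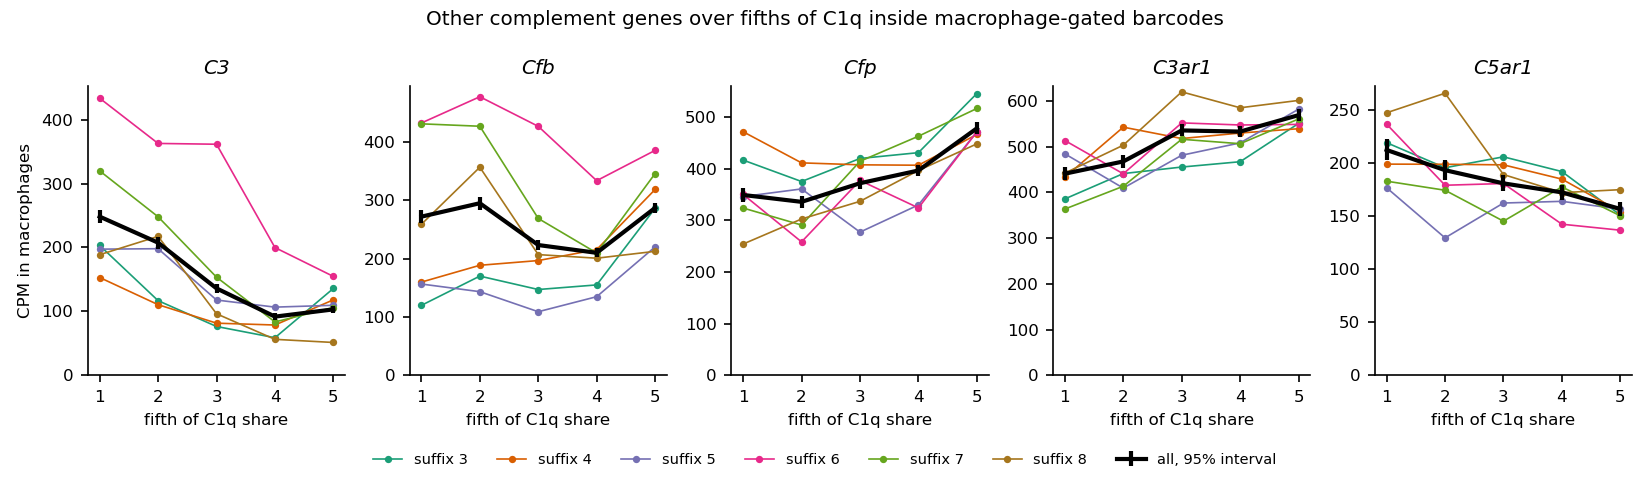
CPM of C3, Cfb, Cfp, C3ar1 and C5ar1 inside macrophage-gated barcodes over 5 bins of the C1q share (1 lowest, 5 highest), by library (coloured) and over all libraries (black, with intervals of 95%). C3 goes from 248 to 103 CPM and C3ar1 from 441 to 569 CPM, and the Cfb lines of suffixes 3, 4 and 5 end above their starts while those of suffixes 6, 7 and 8 end below.

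Other genes of monocytes and macrophages, which the gate does not separate, place these bins. Of 9 monocyte genes (Ly6c2, Ccr2, Vcan, Plac8, Chil3, Hp, Ly6i, Thbs1 and Fn1), all 9 were lower in the top C1q bin in all 6 libraries, and their sum was 5075 CPM in the bottom and 762 CPM in the top bin. Of 10 genes of mature macrophages, 7 were higher in all libraries (Apoe, Trem2, Ms4a7, Gas6, Selenop, Folr2 and Cd72), Pf4 was lower, and Mrc1 and Maf were mixed. Nos2, the inducible nitric oxide synthase, was lower in the top bin in all libraries. So were 3 of 5 MHC class II genes. The 4 dividing-cell genes were higher in all 6, and of 10 interferon-response genes 2 (Isg15 and Rsad2) were lower and none was higher in all 6. Summed, the interferon-response genes were 2513 CPM in the bottom and 1606 CPM in the top bin, with ratios of 0.478 to 0.897 over the libraries. The part of monocytes in the differences of complement genes over the C1q bins was not tested. The lists were chosen with earlier results of these data known.

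The same was done with a share of UMIs on the 10 interferon-response genes (Isg15, Ifit1, Ifit2, Ifit3, Rsad2, Irf7, Cxcl10, Usp18, Oasl1 and Cmpk2), since C3 and Cfb are known as genes that interferons and inflammatory signals induce. Both were higher in the top than in the bottom bin in all 6 libraries, where 8.02% of 10648 genes were higher and 10.5% lower in all 6. Cfb was 160 CPM in the bottom and 332 CPM in the top interferon bin, 2.07-fold higher (1.96 to 2.19), with 1.71-fold to 5.95-fold in the single libraries and the highest value in suffix 5. C3 was 99.0 CPM in the bottom and 190.0 CPM in the top interferon bin, 1.92-fold higher (1.79 to 2.06), with 1.60-fold to 2.26-fold. Cfp was lower in all 6 libraries by 1.02-fold to 1.24-fold, with an interval that held 1 in suffixes 3, 4, 5 and 6. C1qc was lower in all 6 by 1.01-fold to 3.26-fold, with an interval that held 1 in suffixes 4 and 5. C1qa was lower in 5 of 6 and C1qb in 4 of 6. C3ar1 was higher in 2 and C5ar1 in 1 of the 6 libraries, with pooled ratios of 0.977 (0.943 to 1.01) and 0.870 (0.818 to 0.924). The median depth was 12903 UMIs in the bottom and 11286 in the top interferon bin. Other cell-state genes moved with these bins too. Of the 9 monocyte genes, 7 were higher in the top interferon bin in all 6 libraries, Chil3 was higher in 5 and Fn1 in 1, and their sum was 1402 CPM in the bottom and 3280 CPM in the top bin. Ly6c2 was 4.16-fold to 12.3-fold and Plac8 3.66-fold to 7.13-fold higher, more than C3 in any library. Of the 10 mature macrophage genes, 5 were lower in all 6 libraries, and summed neutrophil markers were 114 CPM in the bottom and 227 CPM in the top bin. Summed B-cell markers were 21.3 CPM in the bottom and 10.1 CPM in the top bin and lower in all 6 libraries. Nos2 (65.6 and 130 CPM) and the MHC class II genes (7718 and 9879 CPM) were higher in the top bin in 5 of 6. The part of these differences in the C3 and Cfb levels was not tested.

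**Figure D5:**
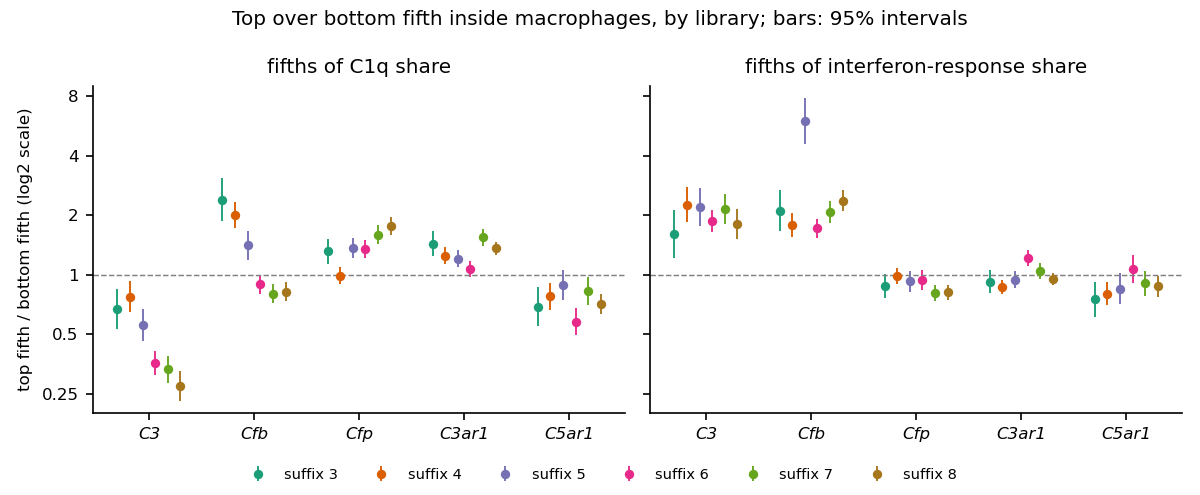
Level in the top bin divided by that in the bottom bin inside macrophage-gated barcodes, on a log2 scale, for bins of the C1q share (left) and of the interferon-response share (right); each colour is a library and lines are intervals of 95%. C3 lies below 1 on the left (0.273 to 0.772) and above 1 on the right (1.60 to 2.26), and Cfb lies on both sides of 1 on the left.

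A crossing of the lower and upper parts of the C1q share with those of the interferon share was done with cuts at the medians of each library. The parts differed in monocyte genes as well, whose sum was 4348 CPM with low C1q and high interferon, 3278 CPM with both low, 1340 CPM with both high and 904 CPM with high C1q and low interferon. Cfb was higher with more interferon transcripts in all 6 libraries at low C1q (1.29-fold to 2.70-fold) and at high C1q (1.25-fold to 2.35-fold). By C1q it was higher in 3 of 6 libraries at either interferon level. C3ar1 was higher with more C1q in all 6 libraries at low interferon (1.03-fold to 1.25-fold) and at high interferon (1.16-fold to 1.46-fold). C3 was lower with more C1q in 5 of 6 libraries at low interferon and in 6 of 6 at high interferon, and it was higher with more interferon transcripts in 6 of 6 at low C1q and in 5 of 6 at high C1q. Cfp was higher with more C1q in 6 of 6 libraries at low and in 5 of 6 at high interferon. C5ar1 was lower with more C1q in 4 of 6 libraries at low and in 5 of 6 at high interferon. Summed over libraries, C3 was 241 CPM with low C1q and high interferon, 167 CPM with both low, 114 CPM with both high and 92.8 CPM with high C1q and low interferon.

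Gene by gene, C3 and Cfb went with different neighbours than the receptors did. The genes most like C3 inside macrophages were Gm15056 (mean r over libraries 0.39), Ccl5 (0.38), Pla2g7 (0.35), Ly6i (0.35) and Ly6c2 (0.33), and the genes most like Cfb were Irf7 (0.38), Ly6e (0.36), AW112010 (0.36), Aif1 (0.36) and Ms4a4c (0.35). For C3ar1 they were the lysosomal protease genes Lgmn (0.45), Ctsl (0.41) and Ctsb (0.40), then Grn (0.39) and Ccl7 (0.37). For C5ar1 they included Adam8 (0.34), Msr1 (0.32), Ccl2 (0.29) and Dab2 (0.28), and for Cfp they were Lgals1 (0.33), Ctsc (0.26), Ccnd1 (0.25), Ppia (0.25) and C1qb (0.24). Within the set, C3 went with Cfb (0.25) and against C1qc (-0.27), and every other pair outside the C1q chains lay between -0.25 and 0.24. Such values are weak, come from sparse counts that share depth, and are given as a description.

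Of 46 other complement genes that were listed by role, 40 were in the matrix and 14 reached 20 CPM in a gated group. Of the components, C4b, the classical-pathway protein that C1 proteases cleave, alone reached this level. It was 66.8 CPM in macrophage-gated and 21.8 CPM in neutrophil-gated barcodes, and 4.08-fold to 9.97-fold higher in the top than in the bottom C1q bin in all 6 libraries. Of the recognition molecules and proteases, Colec12, a scavenger receptor, was 142 CPM in macrophage-gated barcodes and Fcna, a ficolin, 22.7 CPM, while C1qbp, a mitochondrial protein named for its binding of C1q, was similar in most groups (67.7 to 155 CPM). Fcna was higher in the top C1q bin in all 6 libraries, by 4.01-fold to 16.8-fold. None of C1ra, C1rb, C1s1, C1s2, Masp1 and Masp2, the proteases that act beside C1q and lectins, reached 20 CPM in any gated group. C2, the next substrate of the classical pathway, was at 3.31 CPM in macrophage-gated barcodes.

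Among the regulators, Cd59a was highest in dendritic-gated (29.4 CPM), Cd55 highest in B-gated (152 CPM) and Cr1l highest in NK-gated barcodes (101 CPM). Among the other receptors, Itgam and Itgb2, the chains of complement receptor CR3, were 450.3 and 251 CPM in macrophage-gated barcodes. Itgax was highest in dendritic-gated (41.0 CPM) and Cr2 in B-gated barcodes (87.7 CPM). The B-gated levels come from only 37 barcodes and are given without an interval. Lrp1, Cd93 and Lair1 were highest in macrophage-gated barcodes (250.1, 193 and 184 CPM). Of the 14 genes, 13 held at least 100 UMIs in macrophage-gated barcodes, and 8 of these were higher in the top C1q bin in all 6 libraries, namely Fcna, Colec12, C1qbp, C4b, Cd55, Cd59a, Cd93 and Lair1, beside the 21.7% of all genes given above. The 5 B-cell markers also went from 7.04 CPM in the bottom to 26.7 CPM in the top C1q bin, and Cd55 was 1.98 CPM in macrophage-gated against 152 CPM in B-gated barcodes. Their part in the Cd55 difference was not tested. Colec12 was 1.17-fold to 1.67-fold, C1qbp 1.23-fold to 3.26-fold and Cd59a 2.38-fold to 16.2-fold higher. Itgb2 and Lrp1 were lower in all 6, beside 14.4% of all genes. Vsig4, a C3b receptor of resident macrophages, was at 1.04 CPM in macrophage-gated barcodes, and C5ar2, the other C5a receptor, at 1.43 CPM. The genes under 20 CPM given here (C2, Vsig4, C5ar2 and the proteases) were chosen for naming after their values had been seen.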

How the data were processed

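The scRNA-seq libraries were made from CD45-selected cells of CT26 tumors with 10x Chromium 3′ chemistry. As deposited, the values are unnormalized UMI counts of 20649 genes in 9235 barcodes, with all tumors in 1 matrix. The submitters' processing notes list Cell Ranger 1.2, Seurat 3.1.5, R 4.0.1 and build mm10. Their filter on barcodes is not given in the sources used here. In the deposited counts the barcodes held 431 to 115427 UMIs and at most 9.99% mitochondrial UMIs.

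The gates, the members and all gene lists were chosen with earlier results of these data known. UMIs were summed per group and divided by the total of the group (CPM), with exact Poisson intervals. Shares of barcodes were taken after thinning to 1000 UMIs (seed 1; shallower barcodes left out), with Clopper-Pearson intervals. A ratio of CPM between bins has an exact conditional binomial interval. All intervals cover counting error only, at a level of 95%. No doublet caller was run; barcodes that passed several gates were left out instead. The rules for names took all members, other complement genes with at least 20 CPM in a gated group, and, inside macrophages, the 5 genes with the highest mean Pearson r with a member over the 6 libraries, on log-transformed counts per 10000 UMIs, among genes found in at least 10% of macrophage-gated barcodes. A few genes of the lists are not reported here and were left out of the sums and counts. In 1 pooled sample no test between conditions was possible, so no p-value was computed, and the treatments were not compared. The thinning and the ratios were tested on simulated data with known answers. Python 3.11.15, numpy 2.4.6, scipy 1.17.1 and pandas 2.3.3 were used. The alternatives changed the gates, the depth, the number of C1q bins, the measure of C1q, the denominator, the barcodes kept and the libraries kept.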

Additional observations from a re-analysis of the deposited data

Results flagged for a closer look

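In each of 14 sets of 6 library values (CPM of the 9 genes in macrophage-gated barcodes and the top-to-bottom ratios of C3, Cfb, Cfp, C3ar1 and C5ar1 over the C1q bins), the library farthest from the others was compared with Dixon's critical value for 6 values, 0.625. Chance alone passes this limit in about 1 in 20 sets. C3 in macrophage-gated barcodes of suffix 6 was 283 CPM, against 100.4 CPM in the lowest library and a median of 124 CPM. Serping1 in macrophage-gated barcodes of suffix 7 was 4.77 CPM, against 1.04 CPM in the lowest library and a median of 1.40 CPM. Of the 49 Serping1 UMIs behind it, 14 lay in 1 barcode, which also held 14 UMIs of fibroblast markers, and without that barcode the level was 3.42 CPM.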

How the results depend on the processing

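The number of the 9 genes at least 2-fold higher in macrophage-gated barcodes than in every other group was 3. It was 0 with every barcode that passed a gate, where 908 of 1049 neutrophil-gated barcodes also passed the macrophage gate, and 0 with gates read at 1000 UMIs. Chosen after seeing the data, it was 5 when other groups lacked macrophage transcripts and 8 without neutrophil-gated barcodes. The 5 include Cfb and Cfp, which rested on 1 and 3 UMIs in the 7 neutrophil-gated barcodes left. Their intervals there reached 67.3% and 68.0% of the macrophage level, so a difference under 2-fold was not excluded. As a median over libraries the number was 4, with Cfp added. Leaving out a library in turn gave 3 to 4. The number of genes higher in the top C1q bin in all 6 libraries was 1 (C3ar1). It was 2, with Cfp added, at 5000 UMIs per barcode, with C1qc alone, with UMIs other than C1q, mitochondrial and ribosomal ones as denominator, with every barcode that passed the macrophage gate, without dividing barcodes, without the deepest 10% of barcodes and, chosen after seeing the data, as a mean over barcodes. Leaving out a library gave 1 to 2, where Cfp was added without suffix 4 and Serping1 without suffix 8. The number lower was 2 (C3 and C5ar1). It was 1, C3, with 2 bins, with every barcode that passed the macrophage gate, and in barcodes with no UMI of other gates (1019) or of S100a9 (1060) nor of stromal, dividing or red-cell markers. Leaving out a library gave 2 to 2. The Cfb ratio of 1.06 turned to 0.898 with 2 bins, 0.918 with 3 bins, 0.961 with C1qc alone and 0.947 without suffix 4 (0.947 to 1.15 over libraries left out). The cause was not tested. Over all settings the C3 ratio was 0.373 to 0.492, C5ar1 0.691 to 0.847, C3ar1 1.18 to 1.54 and Cfp 1.24 to 1.49. The bins were cut within each library, so their top-to-bottom ratios compare barcodes of the same library, and no paired test was run on them. The libraries carry none of the replicate numbers, so samples could not be paired across treatments.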

Other observations

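The 6 suffixes were read as libraries of unknown treatment, and the labels do not say which tumor each holds. The following values are given for each without a comparison of treatments. The top-to-bottom ratio of Cfb over the C1q bins was 2.38, 1.99, 1.41, 0.892, 0.802 and 0.821 in suffixes 3 to 8, in that order. The C3 ratio in the same order was 0.669, 0.772, 0.556, 0.357, 0.332 and 0.273. The number of neutrophil-gated barcodes in the same order was 5, 5, 5, 41, 23 and 34, of 867, 1620, 1693, 1328, 1710 and 2017 barcodes. The Ly6c2 level in macrophage-gated barcodes was 128, 102, 140, 582, 321 and 238 CPM. The Isg15 level there was 194, 200, 157, 608, 239 and 183 CPM. C1qa, given by library above, was highest in suffix 4 and lowest in suffix 6, so the series do not order the libraries alike. The treatment of each suffix is unknown, so whether any of these differences goes with exoASO-STAT6 was not tested.

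C3 was the most unevenly held of the abundant members. The tenth of macrophage-gated barcodes richest in C3 held 48.2% of its UMIs, against 29.5% for C3ar1, and the median barcode held 1 UMI of C3 and 6 of C3ar1. C3 was lower in level, and sampling alone makes a sparser gene look more uneven, so this is a description only.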
